A study of Mus musculus with 4 samples.

Results

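The endoplasmic reticulum (ER) chaperones and a transcription factor of the unfolded protein response were followed in mouse microglia as 10 genes taken by symbol from the 19737 genes of a single-cell count matrix: Hspa5, Hsp90b1, Sdf2l1, Creld2, Calr, Canx, Pdia3, Pdia4, Pdia6 and Xbp1. All 10 were present and all passed the filter on low counts. The 20 mice fell into 5 groups of 4. WT;TfRmu/hu mice received ATV:ISO or ATV:4D9. The 3 groups of AppSAA;TfRmu/hu mice received ATV:ISO, 4D9 or ATV:4D9. Every mouse had 10 mg per kg once, intravenously, 24 h before collection. All groups carried the TfRmu/hu knock-in, a transferrin receptor with a human part to which the ATV fragment binds. AppSAA mice, bred homozygous for both alleles, carry an App gene with a humanized amyloid-beta region and the Swedish, Arctic and Austrian mutations, expressed from the gene's own promoter, and model amyloid deposition. 4D9 is an antibody that activates TREM2, a lipid receptor of microglia. ATV:4D9 is the same antibody with an Fc that binds the transferrin receptor, and ATV:ISO is the isotype control in that format. The deposited metadata call the control ATV-DNP02, which was read as ATV:ISO although no deposited text equates the names. The study's reporting summary gives AppSAA;TfRmu/hu mice as males of 8 months and WT;TfRmu/hu mice, over all its experiments, as both sexes of 2 to 8 months. Of the WT;TfRmu/hu mice used here, 1 given ATV:ISO was recorded as female and the rest as male, and no record used here gives the age of each mouse. Live CD11b+ cells were sorted from dissociated cortex and hippocampus, the series text naming the cortex alone.

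The matrix held 74758 cells, 2193 to 6126 per mouse, and 17150296 to 102446549 unique molecular identifiers (UMIs, counted molecules) per mouse. Every group gave 1 mouse to each of 4 pools. Of the cells, 1089 (1.46%) had a barcode sequence found in more than 1 pool. The microglial identity held throughout: no cell lacked all microglial marker UMIs, and 2 cells had as many or more UMIs of another cell type's markers. Median UMIs per cell averaged 7566 in WT;TfRmu/hu mice with ATV:ISO and 15338 with ATV:4D9, and 9338.5, 9741 and 15523 in AppSAA;TfRmu/hu mice with ATV:ISO, 4D9 and ATV:4D9. Unless stated, levels below are CPM, the UMIs of a gene scaled to a fixed total of UMIs in the mouse, so they are relative to all other transcripts and not per cell. In such sums, a change in the share of cells that express a gene and a change of its RNA per cell cannot be told apart.

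The ER folds proteins that enter the secretory pathway. Hspa5 (BiP) holds unfolded chains, Hsp90b1 (GRP94) completes the folding of selected clients, Calr and Canx bind glycoproteins through their sugar chains, and the Pdia enzymes form and rearrange disulfide bonds. When unfolded protein accumulates, the sensors Ire1, Perk and Atf6 start the unfolded protein response. Ire1 splices the Xbp1 messenger, whose product, together with cleaved Atf6, binds the ER stress response element (ERSE) in promoters of chaperone genes. UMIs counted at the 3′ end do not separate spliced from unspliced Xbp1.

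The promoters are shown first because several of the members share a response element. The members were chosen as chaperone genes, in whose promoters this element is known, so its frequency among them is a description and carries no test. RefSeq windows of 250 bases before to 50 after the transcription start (GRCm38.p6) matched all 10 members. The ERSE, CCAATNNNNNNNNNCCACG on either strand, was found exactly in 6 of 10 members, in Hsp90b1 at a pair of places, and in 0.119% of all 32851 windows. In the stretches below, read 5′ to 3′ on the strand of the gene, the capitals mark the fixed letters of the element. Those of Hsp90b1 (downstream copy), Calr and Creld2 stand in the reverse orientation.
Hspa5: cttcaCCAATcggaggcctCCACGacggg
Hsp90b1, upstream copy: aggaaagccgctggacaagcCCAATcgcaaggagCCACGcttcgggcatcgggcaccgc
Hsp90b1, downstream copy: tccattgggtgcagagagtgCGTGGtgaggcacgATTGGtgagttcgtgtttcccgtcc
Calr: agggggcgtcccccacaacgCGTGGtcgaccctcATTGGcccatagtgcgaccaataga
Canx: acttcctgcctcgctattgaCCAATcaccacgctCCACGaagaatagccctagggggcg
Pdia6: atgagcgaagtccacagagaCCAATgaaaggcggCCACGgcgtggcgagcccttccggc
Creld2: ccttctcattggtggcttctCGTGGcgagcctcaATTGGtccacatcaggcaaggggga

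These stretches lie at chr2:34772020-34772048 on the plus strand for Hspa5, chr10:86705618-86705676 and chr10:86705513-86705571 on the minus strand for Hsp90b1, and chr8:84847055-84847113 on the minus strand for Calr. They lie at chr11:50325780-50325838 (minus) for Canx, chr12:17266471-17266529 (plus) for Pdia6 and chr15:88819500-88819558 (plus) for Creld2. All begin upstream of the RefSeq start, the Hspa5 element 65 bases and the upstream Hsp90b1 element 212 bases before it. In GENCODE vM21 the Hspa5 transcript starts 120 bases further upstream, which places its element inside the annotated first exon. The other stretches overlap no annotated exon.

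Sdf2l1, Pdia3, Pdia4 and Xbp1 had no exact ERSE in the window. The short element CCACG, which is also the end of the ERSE, was present in 8 of 10 members and in 32.8% of all windows, on either strand. Sdf2l1 had 3 copies, Pdia4 had 1 copy that starts 36 bases after the RefSeq transcription start, and Pdia3 and Xbp1 had none. In GENCODE vM21 the Pdia4 gene starts further downstream, so that its copy lies before that start. The Pdia3 gene starts 127 bases further upstream there, so the window holds less of its upstream part. A related element, ATTGGNCCACG on either strand, occurred in 0 of 10 members and in 0.0365% of windows. The upstream parts of Sdf2l1 (chr16:17132384-17132633, minus strand) and Xbp1 (chr11:5520391-5520640, plus strand) are shown as the member with the largest rise under ATV:4D9 in WT;TfRmu/hu mice and the member that was not called there. Capitals mark the short element.
Sdf2l1: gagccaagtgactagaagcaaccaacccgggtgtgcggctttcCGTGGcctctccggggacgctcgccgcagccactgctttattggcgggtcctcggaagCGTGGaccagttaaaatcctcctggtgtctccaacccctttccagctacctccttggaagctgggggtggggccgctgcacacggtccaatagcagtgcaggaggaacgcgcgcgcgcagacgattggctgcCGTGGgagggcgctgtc
Xbp1: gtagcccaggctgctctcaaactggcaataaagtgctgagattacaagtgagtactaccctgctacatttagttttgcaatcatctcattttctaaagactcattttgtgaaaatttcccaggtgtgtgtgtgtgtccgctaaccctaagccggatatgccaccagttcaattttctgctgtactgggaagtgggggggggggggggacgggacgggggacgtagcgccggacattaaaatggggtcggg

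**Figure D1:**
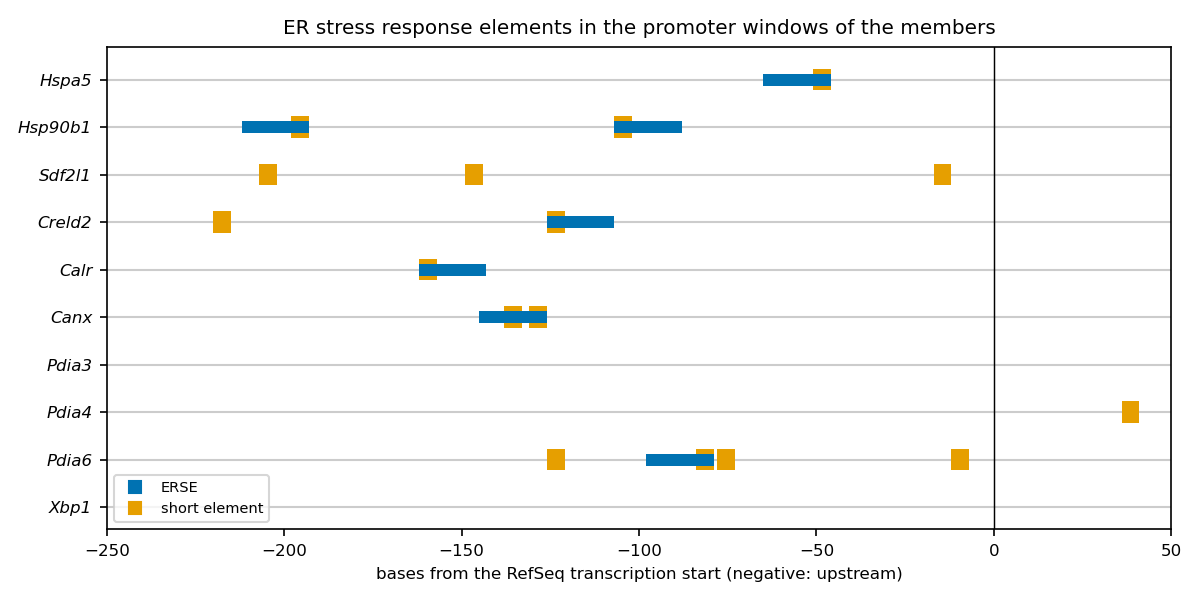
Position of each ERSE (blue) and of the short element (orange) along the promoter windows of the 10 members, in bases from the RefSeq transcription start. The ERSE of Hspa5 begins 65 bases upstream of the start, and Pdia3 and Xbp1 show neither element.

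With ATV:4D9 in WT;TfRmu/hu mice, 9 of the 10 members were higher than with ATV:ISO, and Xbp1 was not called. Over all 14058 genes tested, 30.8% were called higher and 32.5% lower in this comparison (68.2% and 2.35% when UMIs were scaled to cell number), and the median log2 fold change was 1.17 over the members and -0.05 over all genes. In each of the 9, all 4 mice with ATV:4D9 lay above all 4 with ATV:ISO, a separation in that direction which 27.9% of all genes showed. The rise was largest for Sdf2l1 and Creld2 and smallest for Canx. The members were chosen with earlier results of these data known, so their counts beside all genes, here and below, describe the set and carry no test.

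The BiP group was followed mouse by mouse, in the order of pools 1 to 4. Hspa5 was at 878, 1010, 775 and 694 CPM with ATV:ISO and at 2322, 1904, 1742 and 1654 CPM with ATV:4D9. Its log2 fold change was 1.18 ± 0.17 (SE, n = 4 mice per group), or 2.27-fold, with an adjusted p of 6.19e-06 by edgeR's quasi-likelihood test. The groups did not overlap, and within pools the log2 ratio lay between 0.91 and 1.40. Sdf2l1, which forms a complex with BiP co-chaperones, was at 234, 209, 165 and 171 CPM with ATV:ISO. With ATV:4D9 it was at 997, 735, 694 and 732 CPM. This was a 4.06-fold difference (log2 2.02 ± 0.18, adjusted p = 8.57e-09), and the mouse of pool 1 stood apart above the other three. Creld2, a secreted ER-resident protein with disulfide isomerase activity, rose 2.95-fold (log2 1.56 ± 0.25, adjusted p = 2.02e-05), from 43.9 to 58.1 CPM up to 118 to 212 CPM. Hsp90b1 rose 1.91-fold (log2 0.93 ± 0.11, adjusted p = 6.11e-07).

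Among the lectin chaperones, Calr, which resides in the ER lumen, was at 630, 578, 666 and 735 CPM with ATV:ISO and at 1705, 1406, 1804 and 1969 CPM with ATV:4D9. Its log2 fold change of 1.40 ± 0.12 had the smallest adjusted p of the 10 members in this comparison (adjusted p = 2.19e-09). Its membrane-bound relative Canx moved less, from 407 to 447 CPM up to 579 to 646 CPM, or 1.42-fold (log2 0.50 ± 0.07, adjusted p = 6.72e-06). The groups were separate for both. Of the disulfide isomerases, Pdia6 and Pdia4 rose by 1.18 ± 0.17 and 1.16 ± 0.16 on the log2 scale. Pdia3 (ERp57), the partner of the lectin chaperones, rose by 0.97 ± 0.17 (adjusted p = 5.70e-05).

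Xbp1 was at 170, 174, 157 and 145 CPM with ATV:ISO and at 170, 159, 144 and 134 CPM with ATV:4D9. The groups overlapped and the log2 fold change of -0.09 ± 0.10 was not called (adjusted p = 0.472), while per cell it turned to 0.75 (adjusted p = 1.94e-07). Counted per 100 cells, Xbp1 rose from 140 to 160 UMIs with ATV:ISO to 250 to 266 UMIs with ATV:4D9, and Hspa5 from 722 to 914 UMIs to 3003 to 3531 UMIs. Scaled to cell number, the median log2 fold change of all genes was 0.79 in this comparison, so Xbp1 lay near that median while the 9 others, from 1.35 for Canx to 2.87 for Sdf2l1, lay above it.

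**Figure D2:**
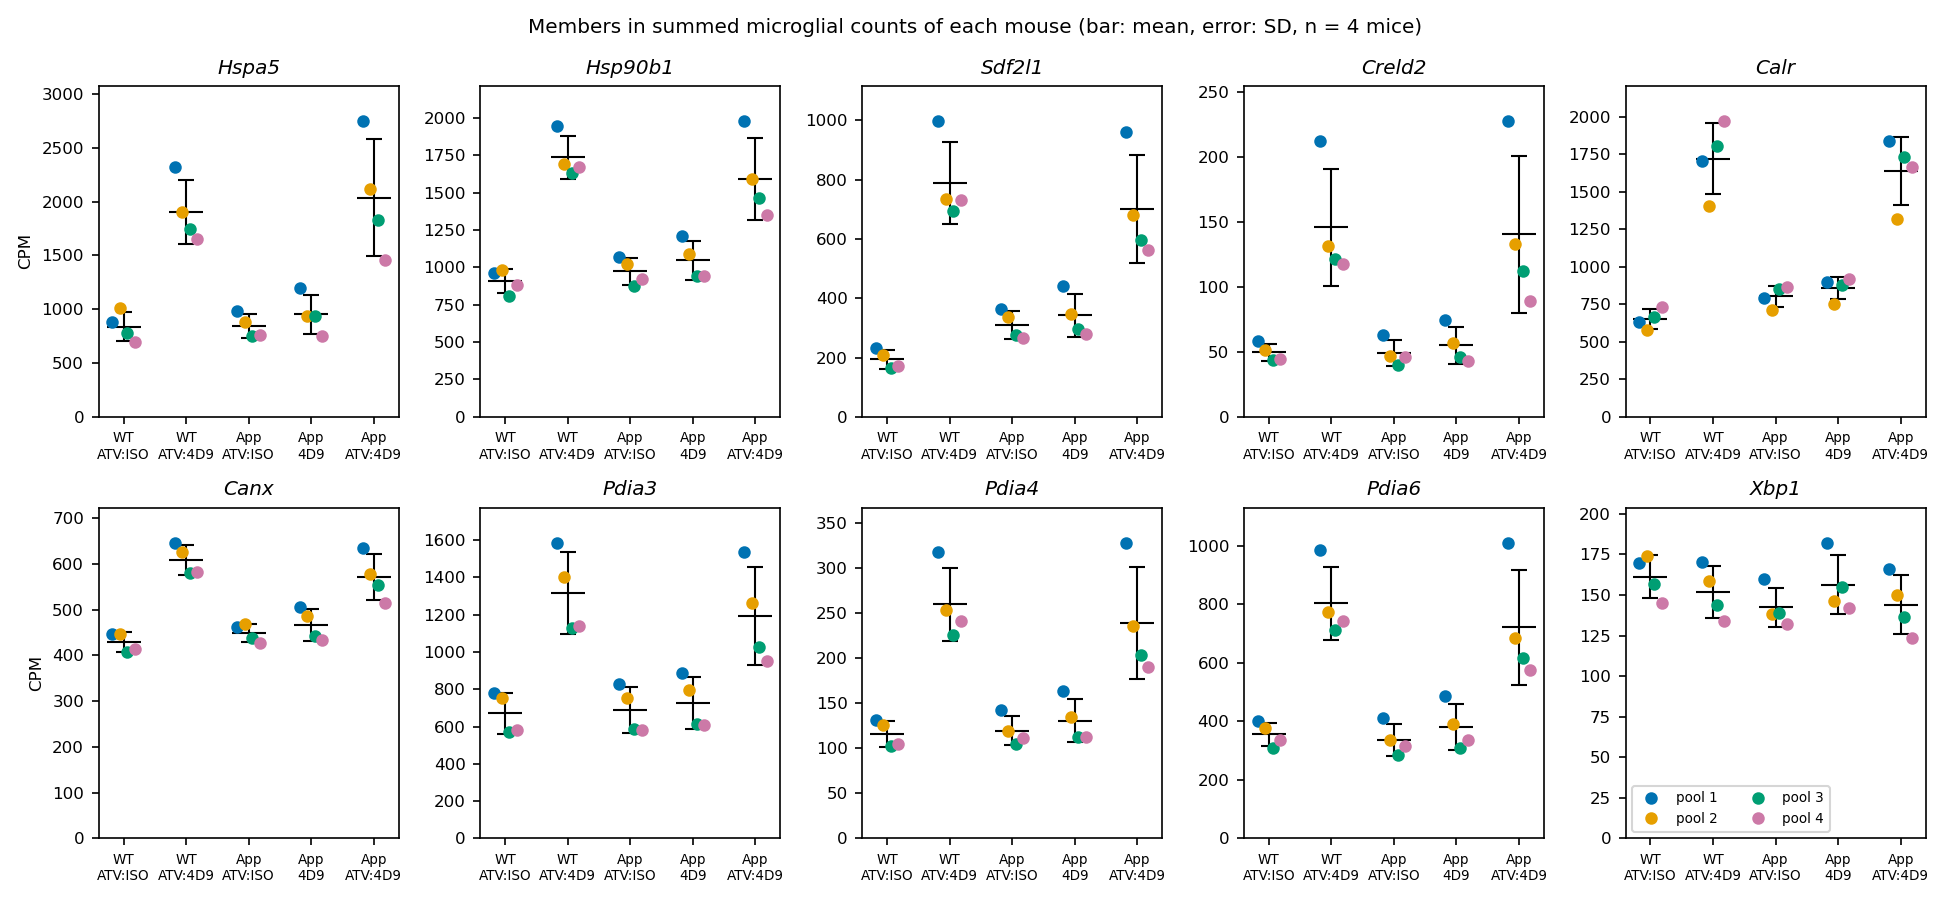
CPM (y axis, from 0) of the 10 members in each of the 20 mice by group (x axis), coloured by pool, with the mean (bar) and SD (n = 4 mice). For every member but Xbp1 the mice with ATV:4D9 lie above those with ATV:ISO of the same genotype, and for most members the mouse of pool 1 is the highest of its group.

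In AppSAA;TfRmu/hu mice the same question of ATV:4D9 against ATV:ISO again gave 9 members called higher and Xbp1 not called, against 27.9% of all genes called higher and 27.1% lower (52.1% and 3.19% when scaled to cell number). In all 9 the mice with ATV:4D9 lay above those with ATV:ISO, as for 24.7% of all genes. The median log2 fold change was 1.01 over the members and -0.03 over all genes. Hspa5 was at 985, 879, 756 and 763 CPM with ATV:ISO and at 2746, 2116, 1831 and 1457 CPM with ATV:4D9 (log2 1.27 ± 0.17, adjusted p = 4.24e-06). Creld2 was at 63.2, 47.1, 39.6 and 46.3 CPM with ATV:ISO and at 227, 133, 112 and 89.4 CPM with ATV:4D9, a 2.87-fold difference (log2 1.52 ± 0.25, adjusted p = 3.80e-05). The mouse of pool 1 was the highest in both groups.

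Sdf2l1 rose 2.26-fold in these mice (log2 1.18 ± 0.18, adjusted p = 1.38e-05), from 365, 336, 276 and 265 CPM to 962, 683, 598 and 562 CPM. Calr rose by 1.03 ± 0.11, Pdia6 by 1.10 ± 0.17, Pdia4 by 1.00 ± 0.16, Pdia3 by 0.80 ± 0.17, Hsp90b1 by 0.71 ± 0.11 and Canx by 0.35 ± 0.07 on the log2 scale. Xbp1 lay at 160, 138, 139 and 132 CPM with ATV:ISO and at 166, 150, 136 and 124 CPM with ATV:4D9. Its log2 fold change was 0.02 ± 0.10 (adjusted p = 0.905). It was below 0 without the ATV:ISO mouse of pool 4 (-0.02) and without the ATV:4D9 mouse of pool 1 (-0.06) or pool 2 (-0.0037). Scaled to cell number it was called higher, at 0.51 (adjusted p = 4.52e-05), so that all 10 members were called on that scale, and lay close to the median of 0.47 over all genes.

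4D9 without the ATV fragment was compared with ATV:ISO in AppSAA;TfRmu/hu mice. The control carries the Fc that binds the transferrin receptor and 4D9 does not, and no group had an isotype control without it. Effects of TREM2 binding and of the format cannot be told apart in this comparison. No member was called, nor was any of the 14058 genes (0% called) by edgeR, with 0 members at an unadjusted p under 0.05 and 79 genes in all. DESeq2 called 1 gene of all, which was no member, and limma-voom called none. Hspa5 was at 1194, 934, 939 and 754 CPM with 4D9, and the log2 difference from ATV:ISO was 0.18 (normal 95% interval -0.16 to 0.51). The interval was -0.09 to 0.20 for Canx and -0.32 to 0.65 for Creld2, the narrowest and the widest of the members. The median over members of 0.13 moved when single mice were left out of fits that did not pair mice by pool. It was 0.02 without the 4D9 mouse of pool 1, where Hspa5 was at 0.05 and Creld2, Pdia3 and Sdf2l1 lay below 0. The median was 0.08 without the ATV:ISO mouse of pool 3 and 0.21 without that of pool 1. Leaving out 1 mouse unbalances the pools, so its own value and the shift of its pool cannot be told apart in these fits. Within pools, 8 of the 10 members were higher in the mouse with 4D9 in all 4 pools, all but Hspa5 and Creld2, which were higher in 3. Over all genes 5.55% showed this. With the pool as a block, Xbp1, Pdia6 and Sdf2l1 had an unadjusted p under 0.05 and none was called. The share of all genes at that unadjusted threshold is not given for the blocked fit.

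Between the antibody formats, ATV:4D9 against 4D9 in AppSAA;TfRmu/hu mice, 9 members were called higher (27.6% of all genes, with 26.7% lower, or 49.0% and 3.74% when scaled to cell number), again all but Xbp1, with the groups separate in all 9 (24% of all genes). The log2 fold changes were 1.36 ± 0.25 for Creld2, 1.09 ± 0.17 for Hspa5, 1.04 ± 0.18 for Sdf2l1 and 0.29 ± 0.07 for Canx. This comparison and that with ATV:ISO share the mice with ATV:4D9. Xbp1 was at 182, 146, 155 and 142 CPM with 4D9, and its difference of -0.12 ± 0.10 was not called (adjusted p = 0.349), but was called with the pool as a block (adjusted p = 0.0256, with 35.6% of all genes called lower). Per cell it was called higher (0.34, adjusted p = 0.0024), below the median of 0.42 over all genes.

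**Figure D3:**
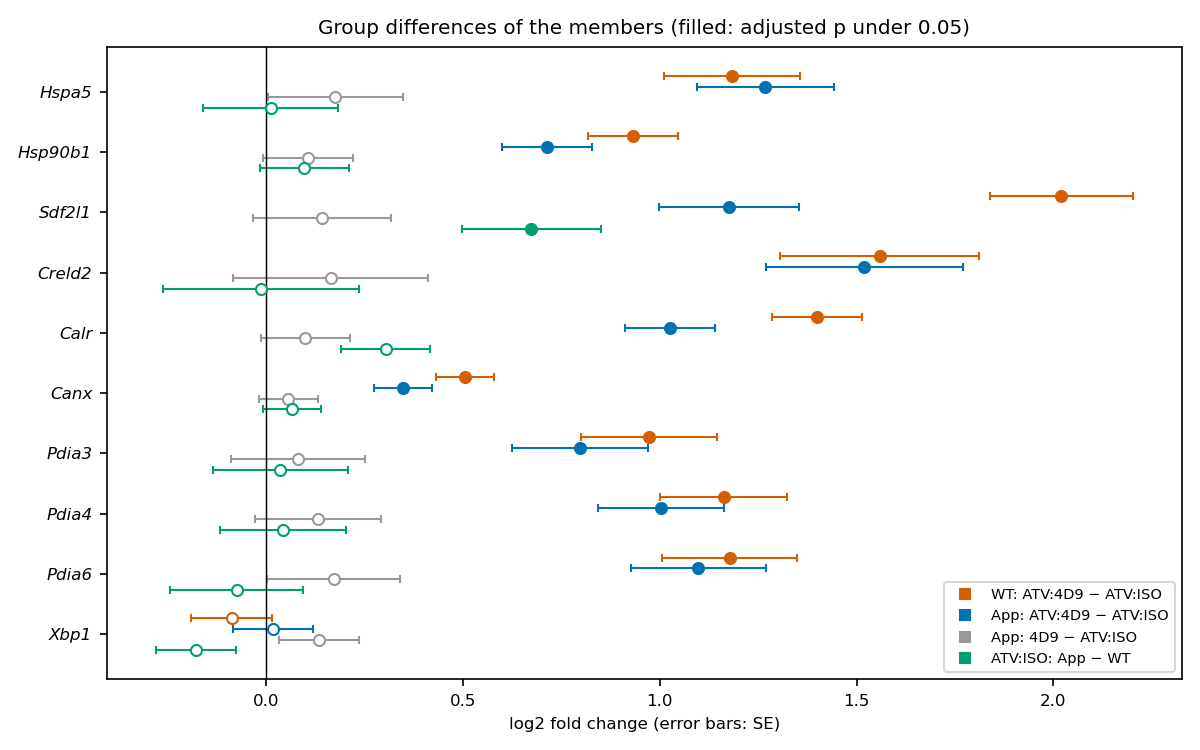
Log2 fold change (x axis, error bars SE) of the 10 members in comparisons of 4 mice against 4, filled where the adjusted p is under 0.05. ATV:4D9 against ATV:ISO is filled for every member but Xbp1 in both genotypes, from 0.35 for Canx to 2.02 for Sdf2l1, and 4D9 against ATV:ISO for none.

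Genotype was compared first under ATV:ISO. Only Sdf2l1 was called higher in AppSAA;TfRmu/hu than in WT;TfRmu/hu mice, against 14.4% of all genes called higher and 13.7% lower (22.9% and 1.49% when scaled to cell number, where 4 members were called higher and the median of all genes was 0.18). Sdf2l1 lay at 265 to 365 CPM against 165 to 234 CPM, groups that did not overlap (log2 0.67 ± 0.18, adjusted p = 0.00698), with a difference of 0.63 to 0.74 inside every pool. Calr was at 792, 711, 850 and 866 CPM against 630, 578, 666 and 735 CPM (log2 0.30 ± 0.11, adjusted p = 0.0511) and higher in 4 of 4 pools. With the pool as a block Calr was called (adjusted p = 0.000152), as was a lower Xbp1 (log2 -0.18, adjusted p = 0.00343), which per cell came to 0.06. That fit called 21.5% of all genes higher and 29.4% lower. Calr was also called by DESeq2, by limma-voom and without 1 mouse at a time for 8 mice, namely the ATV:ISO mice of pool 4 (WT;TfRmu/hu) and pool 2 (AppSAA;TfRmu/hu), the ATV:4D9 mice of pools 2 and 4 (WT;TfRmu/hu) and of pools 1, 2 and 4 (AppSAA;TfRmu/hu), and the 4D9 mouse of pool 2. The ATV:4D9 and 4D9 mice among these are no part of this comparison and enter its fit only through the shared spread and scaling. The other 7 members ranged from -0.08 (Pdia6) to 0.10 (Hsp90b1).

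Under ATV:4D9 no member was called between genotypes by edgeR without the block (11.8% of all genes were, and 7.75% without the AppSAA;TfRmu/hu ATV:4D9 mouse of pool 3). At an unadjusted p under 0.05 there were 0 members (3228 of 14058 genes), and 0 were called by DESeq2 or limma-voom. With the pool as a block, which uses the pairing of mice by pool, 3 members were called lower in AppSAA;TfRmu/hu mice. These were Sdf2l1 (-0.19), Pdia6 (-0.18) and Pdia3 (-0.15), where 31.4% of all genes were called and 14.4% were lower. Within pools the log2 ratio was -0.38 to -0.05 for Sdf2l1, -0.37 to 0.03 for Pdia6 and -0.26 to -0.04 for Pdia3.

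The response itself was compared between genotypes by subtracting the log2 fold change with ATV:4D9 of WT;TfRmu/hu mice from that of AppSAA;TfRmu/hu mice. Sdf2l1 alone was called, at -0.84 ± 0.25 (adjusted p = 0.0371), with 5.35% of all genes called in that direction and 3.79% in the other (15.6% and 0.270% when scaled to cell number, where 5 members were called lower and the median of all genes was -0.30). Its mean level with ATV:ISO was higher in AppSAA;TfRmu/hu mice, and its levels with ATV:4D9 overlapped between genotypes. Calr had -0.37 ± 0.16 (adjusted p = 0.170). With the pool as a block 5 members were called lower, Sdf2l1 (-0.86), Calr (-0.37), Hsp90b1 (-0.23), Pdia3 (-0.18) and Canx (-0.16), where 13.6% of all genes were called lower and 16.9% higher. Without the block, the call of Sdf2l1 ended when any of 8 single mice was left out, with adjusted p from 0.0526 to 0.0854. These were the WT;TfRmu/hu mice with ATV:ISO of pools 3 and 4 and with ATV:4D9 of pool 1 (-0.71 without it), and the AppSAA;TfRmu/hu mice with ATV:ISO of pools 1 and 2 and with ATV:4D9 of pools 2, 3 and 4.

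The pool shifted most members together. In pool 1 the log2 level lay above the group mean by 0.50 for Creld2, 0.35 for Sdf2l1, 0.34 for Pdia6 and 0.28 for Hspa5, averaged over the 5 groups, and in pool 4 it stood at -0.27 for Creld2 and Hspa5. Calr differed, being lowest in pool 2 (-0.22) and near the mean in pool 1 (0.03). Pdia3, Pdia4, Pdia6, Creld2 and Sdf2l1 were highest in the pool 1 mouse in 5 of 5 groups. The median mitochondrial share was 1.01% to 1.32% per mouse in pools 1 and 2 and 1.41% to 2.09% in pools 3 and 4. It also differed between groups. In pools 1 to 4 of WT;TfRmu/hu mice it was 1.05%, 1.01%, 1.41% and 1.52% with ATV:ISO. With ATV:4D9 it was 1.32%, 1.21%, 1.64% and 2.01%. In AppSAA;TfRmu/hu mice it was 1.26%, 1.19%, 1.67% and 1.83% with ATV:ISO and 1.20%, 1.20%, 1.85% and 2.09% with ATV:4D9. The part of this share in the members' values was not tested.

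Across the 20 mice the log2 level of a member correlated with the mean of the other members at Pearson r of 0.94 to 1.00 for 8 members, 0.82 for Calr and 0.09 for Xbp1. The mice share groups and pools, so these values describe the set and carry no test. Of 8024 genes with a mean of at least 10 CPM, the genes outside the set closest to its mean pattern were Mogs (r = 0.99), Kdelr2, Smarcb1, Dnajb11 and Nans, all at 0.99 when rounded.

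The wider ER pathway was read from 127 genes in 6 lists, of which 124 were tested. The lists were chosen with earlier results of these data known, so their shares beside all genes are a description and carry no test. With ATV:4D9 in WT;TfRmu/hu mice 71 were higher and 17 lower, 57.3% and 13.7% of those tested, against 30.8% and 32.5% of all genes. In AppSAA;TfRmu/hu mice 70 were higher and 11 lower, 56.5% and 8.87%, against 27.9% and 27.1% of all genes. These counts are relative to the UMIs of each mouse. Scaled to cell number, 116 (93.5%) were higher and 0 lower in WT;TfRmu/hu mice, against 68.2% and 2.35% of all genes, and with AppSAA 106 (85.5%) were higher and 0 lower, against 52.1% and 3.19%. The falls named for the 6 lists are thus falls relative to the other genes, and none was called lower per cell, a scale on which the median log2 difference of all genes was 0.79 in the first genotype and 0.47 with AppSAA. Among 20 chaperones and co-chaperones 14 rose and 1 fell in WT;TfRmu/hu mice (14 and 2 in AppSAA;TfRmu/hu). Manf, an ER stress-inducible secreted protein, rose by 1.29 ± 0.16, the BiP co-chaperone Dnajb11 by 1.19 ± 0.16 and the BiP exchange factor Hyou1 by 0.98 ± 0.15 on the log2 scale. With AppSAA, Manf (1.24), Dnajb11 (1.09) and Rcn1, a calcium-binding ER protein (1.09), led, while Sil1, another BiP exchange factor, fell by 0.24.

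Of 16 enzymes of disulfide formation 12 rose and 2 fell in WT;TfRmu/hu mice, and 11 rose and 1 fell in AppSAA;TfRmu/hu mice. The ER peroxiredoxin Prdx4 (1.28), Txndc5 (1.17) and the isomerase P4hb (1.04) led in WT;TfRmu/hu mice, with falls in the membrane-bound Tmx3 (-0.33) and Tmx4 (-0.27). Txndc5 (0.89), P4hb (0.80) and Erp44 (0.74) led in AppSAA;TfRmu/hu mice, where Tmx3 fell by 0.21. For N-glycosylation and the calnexin cycle, 16 of 21 rose and 1 fell in WT;TfRmu/hu mice, led by the oligosaccharyltransferase subunits Rpn1 (1.16) and Tusc3 (1.04) and by the glucosidase Mogs (1.04), and 15 rose and 1 fell in AppSAA;TfRmu/hu mice, led by Rpn1 (0.81), Mogs (0.79) and Stt3b (0.71).

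In the list of the translocon and signal peptidase, through which chains enter the ER, 15 of 22 rose and 1 fell in WT;TfRmu/hu mice. Ssr4 (1.04), Sec61b (0.91) and Ssr1 (0.87) led and Sec62 fell by 0.32. With AppSAA, 14 rose and none fell, with Spcs3 (0.81), Ssr2 (0.80) and Ssr1 (0.68) leading.

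In the 2 remaining lists the share that rose was nearer to that of all genes. Of 21 genes of ER-associated degradation, 7 rose (33.3%, against 30.8% of all genes) and 4 fell in WT;TfRmu/hu mice, and 9 rose (42.9%, against 27.9%) and 2 fell in AppSAA;TfRmu/hu mice. Edem1 (0.76), which passes misfolded glycoproteins on, the ATPase Vcp (0.59) and Herpud1 (0.43) rose in WT;TfRmu/hu mice, and Edem3 (-0.50) and Edem2 (-0.47) fell. The AppSAA;TfRmu/hu mice had rises of Herpud1 (0.99), Vcp (0.50) and Derl2 (0.43) and falls of Edem2 (-0.45) and Edem3 (-0.45).

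Of 24 sensors and factors of the response, 7 rose (29.2%) and 8 fell (33.3%) in WT;TfRmu/hu mice, near the 30.8% and 32.5% of all genes, with a median of -0.05, equal to that of all genes. With AppSAA, 7 rose (29.2%, against 27.9%) and 5 fell (20.8%, against 27.1%). The translation factor Eif2s1 (1.36), the target of Perk, the ER calcium pump Atp2a2 (0.72) and Bax (0.59) rose in WT;TfRmu/hu mice. Larger rises were called for 2 genes of low level that were named after their values were seen. Trib3, a pseudokinase induced by stress, rose by 2.05 at a mean of 0.777 CPM with overlapping groups, and Chac1, an enzyme that degrades glutathione, by 1.88 at a mean of 0.496 CPM without overlap. Ddit3 (CHOP), a factor of prolonged ER stress, fell by 0.64 and the Atf6-cleaving protease Mbtps2 by 0.59. With AppSAA, Chac1 (1.83), Eif2s1 (1.21), Atp2a2 (0.63) and Ppp1r15a, a phosphatase subunit that acts on Eif2s1 (0.46), rose, and Creb3l2 (-0.57) and Mbtps2 (-0.54) fell. Ddit3 was there at -0.09 (adjusted p = 0.52). The genes of the sensors were chosen for naming after their values were seen. In WT;TfRmu/hu mice Ern1 (Ire1) fell by 0.77, at a mean of 8.23 CPM, Eif2ak3 (Perk) by 0.36 and Atf6 by 0.19. In AppSAA;TfRmu/hu mice Ern1 fell by 0.58 and Eif2ak3 by 0.39, while Atf6 was at -0.13 (adjusted p = 0.173). Per cell, Ern1 was at 0.08 (adjusted p = 0.795), while Eif2ak3 (0.48, adjusted p = 0.0211) and Atf6 (0.66, adjusted p = 0.00327) were called higher in WT;TfRmu/hu mice, and Ddit3 was at 0.21 (adjusted p = 0.318). The per-cell values in AppSAA;TfRmu/hu mice were -0.09 for Ern1, 0.10 for Eif2ak3 and 0.37 for Atf6, none called.

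Between genotypes under ATV:ISO, 21 of the 124 genes (16.9%) had higher and 7 (5.65%) had lower levels when mice carried AppSAA, against 14.4% and 13.7% of all genes. The share with higher levels was near that of all genes. Prdx4 (0.99), Ssr4 (0.76), the prolyl isomerase Fkbp2 (0.67), the ER oxidase Ero1l (0.61) and Sec61g (0.54) were higher, as was the low Trib3 (1.73). Herpud1 (-0.36) and the BiP co-chaperone Dnajb9 (-0.31) were lower, as were Nfyb (-0.23) and Nfyc (-0.21), subunits of the factor that binds CCAAT. On the per-cell scale these 4 were at -0.13, -0.08, 0.01 and 0.03, and none was called.

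Genes outside the members that carry an exact ERSE in the RefSeq window were few. Of 12 that were tested, 4 were higher and 0 lower with ATV:4D9 in WT;TfRmu/hu mice (33.3%, against 32.2% of the 10494 tested genes with a window), with a median of 0.30 against -0.04. The 4 were Derl3 (1.63, at a mean of 1.45 CPM), a degradation component, Hnrnpa3 (1.25), an RNA-binding protein, Adcy3 (1.11, at a mean of 7.49 CPM), an adenylate cyclase, and Dnajc3 (0.78), an inhibitor of Perk. They were named after their values were seen. The median of the 12 fell between Zfp57 and Xlr3a, genes that were not called and had means of 0.496 and 0.414 CPM. Syvn1, a ubiquitin ligase of the ER, and Alg12, a mannosyltransferase, carry the element and were at 0.05 and 0.12, neither called. In AppSAA;TfRmu/hu mice 4 of the 12 were higher and 0 lower as well, against 29.5% of the tested genes with a window called higher.

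Other gene programs moved with the members. The summed level of 8 cycling genes was 66.5 to 92.5 CPM with ATV:ISO and 925 to 1084 CPM with ATV:4D9 in WT;TfRmu/hu mice, and 108 to 121 against 699 to 917 CPM in AppSAA;TfRmu/hu mice. For 8 interferon genes the ranges were 158 to 247 against 1436 to 2293 CPM, and 240 to 361 against 3366 to 6155 CPM. Homeostatic genes, 8 in all, summed to 13822 to 14874 CPM with ATV:ISO and 7847 to 8744 CPM with ATV:4D9 in WT;TfRmu/hu mice, and to 9151 to 10688 against 6592 to 7730 CPM in AppSAA;TfRmu/hu mice. For 8 genes of disease-associated microglia the ranges were 1382 to 2882 against 1091 to 1782 CPM, and 10959 to 14567 against 5145 to 9748 CPM. The genes of that list moved in both directions in WT;TfRmu/hu mice, where the sums overlapped, with 5 called higher (Lpl at 1.83, Cst7 at 1.36, Itgax, Axl and Clec7a) and 2 lower, the abundant Apoe (-1.02) and Spp1 (-2.56), and a median of 0.60. With AppSAA, 6 were lower and 0 higher. The sums of 6 immediate early genes overlapped, at 6253 to 8768 against 5386 to 6327 CPM, and at 6467 to 9482 against 5587 to 6593 CPM. Of these genes 1 was called higher and 2 lower in WT;TfRmu/hu mice, and 0 and 1 with AppSAA. Jun was called lower in both genotypes (-0.76 and -0.69). Of 6 markers of B cells and antibody-secreting cells, which are rich in ER chaperones, Jchain, Mzb1, Cd79a and Sdc1 did not exceed 0.500 CPM and Igkc did not exceed 1.28 CPM in any mouse. Mzb1 was at 0 in all 4 mice of each group with ATV:ISO. Ighm, between 173 and 260 CPM, made up most of the sum of this list, which was 219 to 260 CPM with ATV:ISO and 173 to 193 CPM with ATV:4D9 in WT;TfRmu/hu mice and 228 to 247 against 183 to 194 CPM in AppSAA;TfRmu/hu mice.

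Markers of other brain cells were low. The sum of 3 endothelial genes was lower with ATV:4D9 without overlap, at 17.3 to 22.4 against 9.88 to 12.3 CPM in WT;TfRmu/hu mice and 39.9 to 50.9 against 15.5 to 27.3 CPM with AppSAA. Pecam1 was called lower in both genotypes (-0.98 and -0.65), and Flt1 was called lower with AppSAA (-1.24) but not in WT;TfRmu/hu mice (-0.62). The defining Cldn5 had a mean of 0.164 CPM. For 3 oligodendrocyte genes the ranges were 26.4 to 35.1 against 15.3 to 25.3 CPM, and 32.9 to 43.4 against 18.1 to 39.9 CPM, with Mbp called lower in both genotypes (-0.69 and -0.60). The sum of 3 neuronal genes was 1.02 to 1.54 against 0.455 to 0.831 CPM in WT;TfRmu/hu mice and overlapped with AppSAA. Sums of T cell, astrocyte, neutrophil and border macrophage markers did not exceed 20.2 CPM in any mouse. The part of these programs and markers in the members' values was not tested.

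The members were next described in the 6 clusters that the authors deposited at resolution 0.2, on the summed UMIs of each mouse in each cluster, for mice with 20 or more cells there. The clusters have no deposited names and were made from the same cells, so differences between them carry no test. By markers, over the mice of all groups, cluster 0 and cluster 3 were highest in the homeostatic list, and cluster 3 also in immediate early genes. Cluster 1 was highest in genes of disease-associated microglia, cluster 4 in cycling genes and cluster 5 in interferon genes. Cluster 2 led in none of these lists. The share of cells in clusters 2, 4 and 5 together was 2.13% to 2.88% per mouse with ATV:ISO and 89.6% to 94.1% with ATV:4D9 in WT;TfRmu/hu mice. In AppSAA;TfRmu/hu mice it was 4.62% to 7.82% with ATV:ISO, 4.61% to 6.22% with 4D9 and 72.7% to 88.1% with ATV:4D9.

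Groups differ in which clusters they fill, so levels were compared between clusters within a group, for clusters with sums of 3 or more mice. Some cluster medians lay close together, as for Sdf2l1 below, and some sums held few cells. Cluster 2 of WT;TfRmu/hu mice with ATV:ISO, for example, had 23 to 42 cells per mouse. Which cluster had the highest median differed between groups. With ATV:4D9 in AppSAA;TfRmu/hu mice it was cluster 2 for 9 members and cluster 3 for Xbp1. In the mice with AppSAA given ATV:ISO it was cluster 2 for Hspa5, Creld2, Pdia3, Pdia4 and Pdia6, cluster 1 for Calr, Canx and Sdf2l1, cluster 4 for Hsp90b1 and cluster 3 for Xbp1. The mice with AppSAA given 4D9 had it in cluster 2 for 6 members, in cluster 1 for Canx and Sdf2l1, in cluster 4 for Hsp90b1 and in cluster 5 for Xbp1. With ATV:4D9 in WT;TfRmu/hu mice it was cluster 5 for 6 members, cluster 2 for Pdia4, Pdia6 and Sdf2l1 and cluster 3 for Xbp1, with cluster 1 not compared. With ATV:ISO in WT;TfRmu/hu mice clusters 0 to 3 could be compared, and cluster 2 was highest for all 10.

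The median Hspa5 in AppSAA;TfRmu/hu mice given ATV:ISO was 1336 CPM in cluster 2, 939 in cluster 5, 911 in cluster 1, 853 in cluster 3, 717 in cluster 4 and 629 in cluster 0. Cluster 2 (1175 to 1440 CPM) lay without overlap above other clusters, among them cluster 0 (583 to 798 CPM), cluster 4 (648 to 829 CPM) and cluster 1. With ATV:4D9 the order was 2395 CPM in cluster 2, 2083 in cluster 5, 1989 in cluster 4, 1356 in cluster 3, 1050 in cluster 0 and 878 in cluster 1. Cluster 4 was thus below cluster 3 with ATV:ISO and above it with ATV:4D9. Sdf2l1 was at 418 to 434 CPM in clusters 1, 2 and 4 with ATV:ISO, and at 776 CPM in cluster 2, 709 in cluster 4 and 396 in cluster 1 with ATV:4D9. Xbp1 had its lowest median in cluster 4, with 90.8 CPM under ATV:ISO and 122 CPM under ATV:4D9 in these mice.

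**Figure D4:**
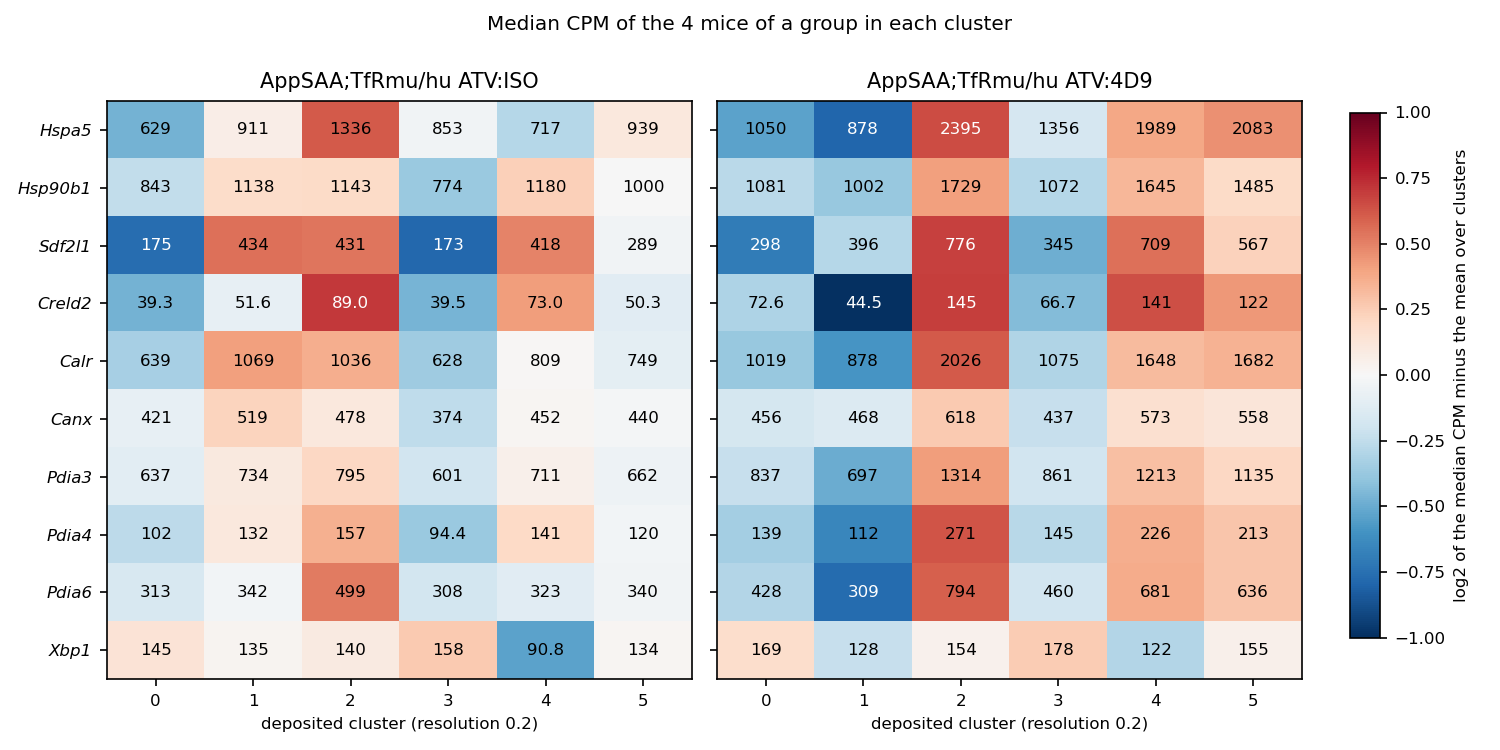
Median CPM over 4 mice (numbers in the cells) of each member in the 6 deposited clusters, for AppSAA;TfRmu/hu mice given ATV:ISO (left) and ATV:4D9 (right), coloured by the log2 distance from the member's mean over clusters in that group. Cluster 2 is highest for 9 members on the right and for 5 on the left, and Xbp1 is lowest in cluster 4 on both sides (90.8 and 122 CPM).

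Because the clusters differ both in level and in their share of cells, ATV:4D9 was also compared with ATV:ISO within clusters. Cells were assigned to clusters from their expression after treatment, so these p-values describe the clusters and do not test treatment on fixed cells. Cluster 0, for example, held 1255 to 1897 cells per WT;TfRmu/hu mouse with ATV:ISO and 60 to 186 with ATV:4D9. In WT;TfRmu/hu mice this was possible in clusters 0, 2 and 3. In cluster 0, 5 members were called higher (1.02% of all genes), Sdf2l1 (0.93 ± 0.15), Calr (0.80 ± 0.12), Pdia6 (0.64 ± 0.14), Pdia4 (0.57 ± 0.15) and Hsp90b1 (0.45 ± 0.10), and 9 with the pool as a block (5.23% of all genes). In cluster 2, for which the mice with ATV:ISO had 23 to 42 cells each, 5 were called (3.19% of all genes), with 0.86 ± 0.19 for Sdf2l1 and 0.68 ± 0.13 for Calr. Hspa5 was at 0.33 ± 0.17 (adjusted p = 0.297), and with the block 8 were called (5.84% of all genes). In cluster 3, 8 were called (4.15% of all genes), all but Creld2 (0.55 ± 0.19, adjusted p = 0.0894) and Xbp1 (0.18 ± 0.10, adjusted p = 0.342). Leaving out the ATV:4D9 mouse of pool 1 left 2 calls in each of the 3 clusters, and leaving out the ATV:ISO mouse of pool 3 did too. The count was 3 without the ATV:4D9 mouse of pool 2 in clusters 0 and 3 or that of pool 4 in cluster 0, 3 without the ATV:ISO mouse of pool 2 or 4 in cluster 2, and 4 without the ATV:ISO mouse of pool 4 in cluster 3. The share of all genes called in these fits is not given, so whether the members lost more calls than other genes cannot be read from the counts.

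In AppSAA;TfRmu/hu mice all 6 clusters could be compared. In cluster 4, for which the mice with ATV:ISO had 27 to 74 cells each, 10 members were called higher (13% of all genes), led by Hspa5 (1.42 ± 0.17) and Pdia6 (1.13 ± 0.14). Xbp1 was among them (0.41 ± 0.11, adjusted p = 0.0114), at 106 to 139 CPM with ATV:4D9 against 87.6 to 99.9 CPM with ATV:ISO. At resolution 0.4, the mice with ATV:ISO had 11 to 19 cells in the cluster numbered 4 and 22 to 60 in cluster 7. Those with ATV:4D9 had 304 to 1075 and 164 to 461. How these finer clusters overlap the present cluster 4 was not tabulated. A shift in the make-up of cluster 4 and a change of RNA per cell cannot be told apart there. In cluster 5, with 46 to 233 cells per mouse with ATV:ISO, 8 were called (15.7% of all genes), led by Creld2 (1.38 ± 0.26) and Hspa5 (1.09 ± 0.18), with Canx (0.26 ± 0.11, adjusted p = 0.0688) and Xbp1 not called. In cluster 2, with 75 to 172 such cells, 9 were called (6.89% of all genes), all but Xbp1, with Hspa5 at 0.84 ± 0.17 and Sdf2l1 at 0.89 ± 0.18.

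The homeostatic clusters of these mice gave fewer calls. In cluster 3, 6 members were called (3.37% of all genes), with Sdf2l1 at 1.02 ± 0.17, Calr at 0.79 ± 0.11 and Hspa5 at 0.65 ± 0.15. In cluster 0, Calr (0.64 ± 0.13) and Sdf2l1 (0.73 ± 0.16) were called (0.53% of all genes). DESeq2 called 4 members (1.45% of all genes), and edgeR with the pool as a block 8 (3.54%). The mice with ATV:4D9 had 37 to 195 cells each in cluster 0. The count in cluster 3 was 2 without the ATV:4D9 mouse of pool 1 or the ATV:ISO mouse of pool 3, and 3 without the ATV:4D9 mouse of pool 2 or the ATV:ISO mouse of pool 4. In cluster 0 it was 0 without the ATV:ISO mouse of pool 2, and 1 without the ATV:ISO mouse of pool 3 or 4 or the ATV:4D9 mouse of pool 1, 2 or 4. The share of all genes called with a mouse left out is not given here either, so a loss particular to the members cannot be read from the counts. Cluster 1 differed in sign. All 10 members lay below 0 there, from -0.23 for Pdia4 to -0.10 for Pdia3, with none called (0.451% of all genes called lower and 1.06% higher), 0 members at an unadjusted p under 0.05 by edgeR, 2 by DESeq2, 1 by limma-voom and 6 with the block, and none called by any of them. The share of all genes at that unadjusted threshold is not given for these fits, so these counts are not read as a result. Hspa5 in cluster 1 was at 842 to 1118 CPM with ATV:ISO and 650 to 1022 CPM with ATV:4D9, ranges that overlapped. The difference of the response between clusters was not tested.

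**Figure D5:**
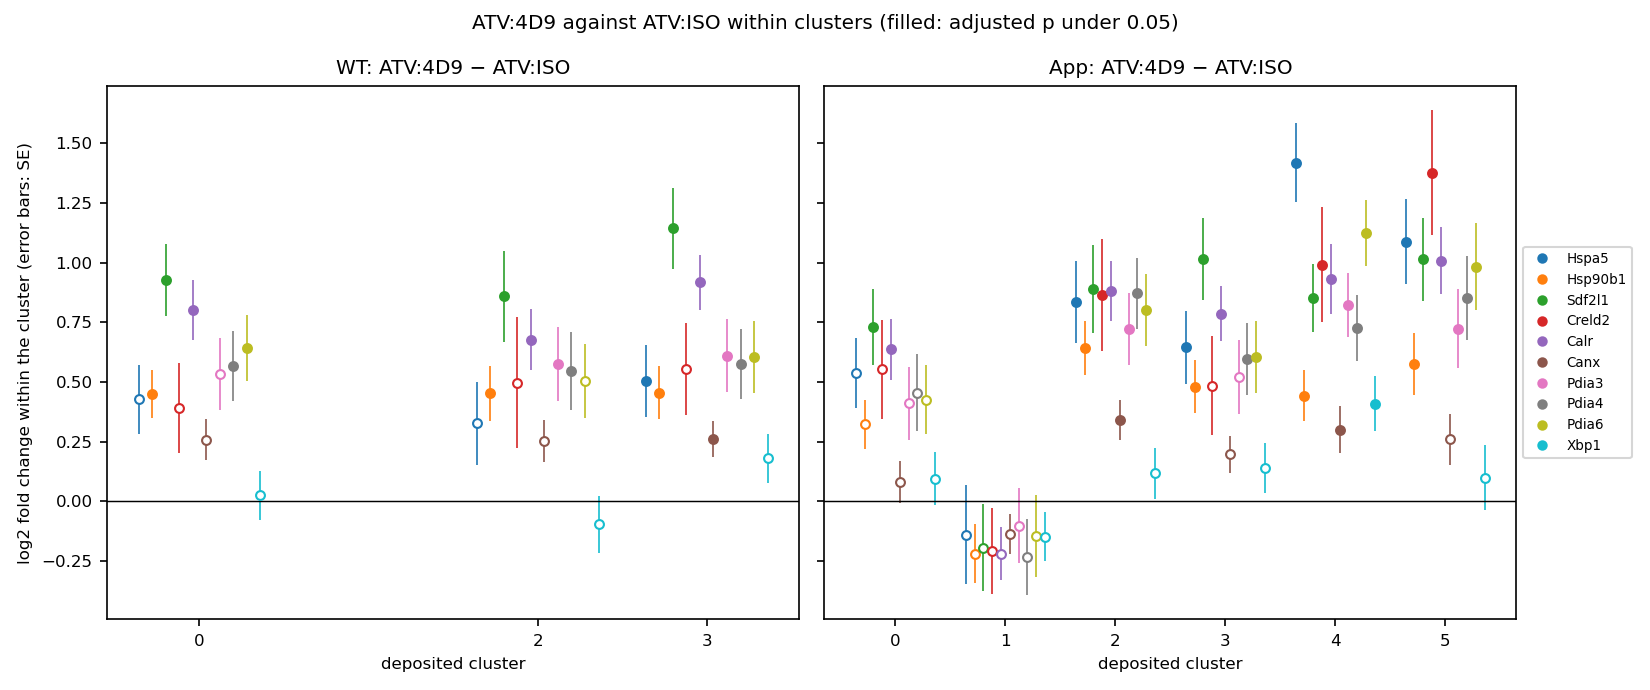
Log2 fold change of ATV:4D9 against ATV:ISO (y axis, error bars SE) of the 10 members within deposited clusters (x axis), in WT;TfRmu/hu mice (left) and AppSAA;TfRmu/hu mice (right), filled where the adjusted p is under 0.05. In cluster 4 all 10 are filled, and in cluster 1 all 10 lie below 0 and none is filled.

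Between genotypes under ATV:4D9, no member was called within any of the clusters 0, 2, 3, 4 and 5, where 0.154%, 2.07%, 0.163%, 2.76% and 6.87% of all genes were called, by edgeR, DESeq2 or limma-voom. At an unadjusted p under 0.05 there was 1 member in cluster 0 and there were 2 in cluster 5, without the share of all genes at that threshold, so these counts are not read as a result. In cluster 5 the median over members was -0.29, and with the pool as a block 9 members were called lower in AppSAA;TfRmu/hu mice, all but Xbp1, from -0.21 for Canx to -0.37 for Sdf2l1 (7.99% of all genes called lower). Without the AppSAA;TfRmu/hu ATV:4D9 mouse of pool 1, 2 were called lower (4.92% of all genes). In cluster 0 the block gave 3 lower members, Hsp90b1 (-0.22), Canx (-0.22) and Pdia6 (-0.32), with 0.488% of all genes called lower.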

How the data were processed

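Live CD11b+ cells of 20 mice were labelled with CellPlex tags, pooled as 1 mouse per group in each of 4 pools and captured with 10x Genomics 3′ chemistry. Cell Ranger (version 6.1.1) and mm10 are named in the submitters' processing notes. The authors deposited unnormalized UMI counts per gene and cell, with the mouse, pool, recorded sex, percent of mitochondrial UMIs and cluster number of each cell; clusters came from Seurat (version 4) after integration. How cells were filtered is not given in the sources used here, and no doublet caller was run. Groups and mice were taken from the deposited metadata, and pool numbers were matched to the labelled pools. All deposited cells were used, at 17150296 to 102446549 UMIs per mouse, so that counting error of the members is small beside the spread between mice except in cluster sums of few cells. It is larger for genes of low level such as Chac1, Trib3 and Derl3.

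Counts were summed over the cells of each mouse, and within clusters where a mouse had 20 or more cells and a group 3 or more such mice. They were tested with the quasi-likelihood test of edgeR (version 4.0.16, R 4.3.3) with filterByExpr, TMM scaling, all groups in 1 fit and p-values adjusted by Benjamini-Hochberg across every gene tested. A gene was called under 0.05. The study's own tool for summed counts, limma-voom (limma 3.58.1), was an alternative, as were DESeq2 (version 1.42.0), other scalings and filters, UMIs per cell, each mouse left out and the pool as a block. Levels are CPM on the TMM-scaled total, and SE is the log2 fold change divided by the square root of F. Intervals are normal 95% intervals from that SE. Scripts were tested on simulated data. The members and gene lists were chosen with earlier results of these data known. Of each pathway list, up to 3 called genes with the largest rise and up to 2 with the largest fall were named, at a mean of at least 10 CPM. As most like the members, the 5 other genes with the highest Pearson r to the mean of their standardised log2 CPM were named at the same minimum.

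Same-numbered replicates share a pool, as the labels state. Deviations of mice of 1 pool from their group means correlated over genes with r from 0.143 to 0.607 (40 pairs), and those of different pools with r from -0.514 to 0.249 (120 pairs). The blocked value is given where it changes a call or a count by over 1.5 times. Promoter windows came from the RefSeq table of GRCm38.p6, and exon overlaps from GENCODE vM21.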

Additional observations from a re-analysis of the deposited data

Results flagged for a closer look

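In the WT;TfRmu/hu mice with ATV:4D9, the mouse of pool 1 stood apart from the other three for 2 members. It had 212 CPM of Creld2 and 997 CPM of Sdf2l1, and its gap to the next mouse took up more of the group's range than Dixon's test allows at the 95% level. The test was applied to 50 sets of 4 mice, and chance flags about 1 in 20. The mouse of pool 1 was the highest of its group in 5 of 5 groups for both genes.

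The rise of Sdf2l1 with ATV:4D9 differed between genotypes, at -0.84 ± 0.25 on the log2 scale in AppSAA;TfRmu/hu relative to WT;TfRmu/hu mice (adjusted p = 0.0371 by edgeR's quasi-likelihood test). It was called under all 8 settings that kept every mouse, and under 12 of the 20 that left a mouse out, with adjusted p from 1.29e-06 to 0.0854 over the 28 settings. The 12 include those without a 4D9 mouse. Such mice are no part of this difference and enter the fit only through the shared spread and scaling.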

How the results depend on the processing

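The 9 members called higher with ATV:4D9 (all but Xbp1), against ATV:ISO in both genotypes and against 4D9, kept direction and call under all 28 alternative settings, as did Sdf2l1 between genotypes under ATV:ISO. Xbp1 was called higher with ATV:4D9 in all 3 comparisons when UMIs were scaled to cell number. Its sign turned there, to 0.75 with ATV:4D9 against ATV:ISO in WT;TfRmu/hu mice, 0.34 against 4D9 and 0.057 between genotypes under ATV:ISO. For AppSAA;TfRmu/hu mice, ATV:4D9 against ATV:ISO, leaving out a mouse gave -0.059 to 0.099, with -0.02 and -0.0037 for a pair of other mice. Between genotypes under ATV:ISO, 2 members were called higher (1 in the main test) by DESeq2, limma-voom, RLE size factors, no filter, the 2 groups alone and the pool as a block, 4 per cell, and 1 to 2 with a mouse left out. For the genotype difference of the response, 5 were lower per cell and with the block, and 0 to 1 with a mouse left out.

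With the pool as a replicate block, 3 members were lower between genotypes under ATV:4D9, 9 and 8 were higher in clusters 0 and 2 of WT;TfRmu/hu mice, and 8 in cluster 0 of AppSAA;TfRmu/hu mice (4 by DESeq2). Between genotypes under ATV:4D9 within clusters, it called 3 in cluster 0 and 9 in cluster 5. Of the members' other calls over all cells, the block added Calr and Xbp1 between genotypes and Xbp1 between the antibody formats. With a mouse left out, the counts ran from 2 to 6 in clusters 0 and 2 and from 2 to 9 in cluster 3 of WT;TfRmu/hu mice, from 0 to 2 in cluster 0 and from 2 to 8 in cluster 3 of AppSAA;TfRmu/hu mice, and from 0 to 2 in cluster 5 between genotypes. These ranges stand without the share of all genes called in the same fits. Fits with a mouse left out had no pool block, so they also unbalance the pools. The 4D9 mice were not left out within clusters. The cause of these changes was not tested.

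The percent of all genes called between genotypes under ATV:ISO was 28.2% in the main test, 17.3% with no filter and 51.0% with the block. Under ATV:4D9 it was 11.8%, 7.32%, 31.4% and, per cell, 5.96%, and for the genotype difference of the response 9.14%, 5.70%, 30.5% and 15.9%. The highest and lowest cluster medians of Calr over all groups were 0.85 apart on the log2 scale in the main clusters and 1.32 at resolution 0.4. The highest cluster there held 8 mice, all given ATV:4D9, and the lowest held 20 mice of every group, so that treatment and cluster cannot be told apart. The related promoter element was in 0 members.

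Few cells of mice with ATV:ISO were in clusters 2, 4 and 5 (in cluster 2 of WT;TfRmu/hu mice 23 to 42 each), which limits the comparisons there. UMIs at the 3′ end give neither the splicing of Xbp1 nor protein levels. UMIs per cell differed between groups, so the value of Xbp1 depends on the scaling.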
